A study of Mus musculus with 6 samples.

Results

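Hepatic stellate cells are followed here through 10 genes. The choice was by name, as established markers, without a rule on their values but with earlier results of these data known. They are Lrat, Reln, Ecm1, Hhip and Colec11, which quiescent stellate cells express, and Des, Acta2, Tagln, Pdgfrb and Lox, which are linked to their activation. All 10, of the 34745 genes in the count table, passed the filter on low counts. Only Tagln changed after APAP by edgeR's quasi-likelihood test, and it rose 6.19-fold. Its log2 fold change of 2.63 fell to 1.72 without APAP replicate 1. The call of this test was lost without any 1 of the saline libraries. Acta2 was far higher in 1 of the 2 APAP livers, Pdgfrb was higher by a similar amount in both, and Ecm1 and Colec11 were lower in both, without passing that test. Lrat and Reln, markers of the quiescent cell, had levels that overlapped between the groups.

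Bulk RNA-Seq had been performed on livers of WT mice given saline or a single APAP overdose of 300 mg/kg for 12 hours, to find the transcripts that differ in the injured liver. The study's methods describe young adult male C57BL/6J mice, fasted before an intraperitoneal injection. No allele or other agent distinguishes the groups, but the sex-linked transcripts Xist and Ddx3y separated them, as given below. Of the 6 samples, 5 libraries were analysed, APAP replicates 1 and 3 and the saline libraries WT1, WT2 and WT3. APAP replicate 2 was not analysed here, and the columns named WT were read as saline because the remaining columns are named for APAP. The study states biological repeats for its experiments as a whole, but the labels tie no library to an animal, so the tests measure only the spread between these libraries.

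Stellate cells lie between the hepatocytes and the sinusoidal endothelium and store retinyl esters in lipid droplets. In chronic injury they lose this store, multiply under PDGF and turn into contractile, collagen-producing myofibroblasts that make alpha smooth muscle actin. Several of the activation genes are not particular to them, since smooth muscle of vessels and ducts also makes Acta2 and Tagln, and all muscle makes Des. In bulk liver RNA, fewer cells of a type and less RNA per cell cannot be told apart. Such RNA also does not show which cells made a transcript, and this holds for the quiescent genes as well.

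Sequences before the transcription start are shown for the members whose libraries did not overlap between the groups or stood far apart within one, in RefSeq's table for GRCm38.p6. Capitals mark letters found by a search of both strands. The search was for the CArG box by name, the TATA box TATAAA, the SMAD element CAGACA and the E-boxes CACCTG and CAGCTG. It also covered the GLI site TGGGTGGTC, the retinoid half-site TGACCT and the AP-1 site TGAGTCA. In the printed Acta2 sites, capitals instead mark the CArG form with 1 inner G or C, from a search added after the data were seen. Positions count back from the RefSeq start. Tagln, Pdgfrb and Lox have no entry in the table. For Acta2 and Colec11 a longer transcript model of GENCODE M21 begins inside the window, so 30-base sites are given for Acta2 and only the stretch before the longer model for Colec11.
Ecm1, chr3:95739570-95739819, minus strand: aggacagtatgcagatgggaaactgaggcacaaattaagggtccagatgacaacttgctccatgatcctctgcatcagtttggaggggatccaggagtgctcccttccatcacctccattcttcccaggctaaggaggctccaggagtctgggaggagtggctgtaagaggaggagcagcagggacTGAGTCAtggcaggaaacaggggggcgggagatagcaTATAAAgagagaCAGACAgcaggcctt
Colec11, chr12:28623378-28623580, minus strand: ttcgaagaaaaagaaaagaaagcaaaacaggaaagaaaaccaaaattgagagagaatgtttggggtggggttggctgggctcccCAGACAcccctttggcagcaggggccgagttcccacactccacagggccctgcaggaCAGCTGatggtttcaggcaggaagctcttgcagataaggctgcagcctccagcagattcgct
Des, chr1:75360042-75360291, plus strand: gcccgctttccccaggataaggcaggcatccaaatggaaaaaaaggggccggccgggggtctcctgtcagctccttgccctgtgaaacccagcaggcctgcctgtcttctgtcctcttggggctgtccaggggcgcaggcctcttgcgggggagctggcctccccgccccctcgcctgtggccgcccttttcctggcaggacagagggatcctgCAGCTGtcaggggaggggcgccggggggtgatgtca
Acta2 upstream site, chr19:34255438-34255467, minus strand: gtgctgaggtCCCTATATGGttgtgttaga
Acta2 proximal site, chr19:34255388-34255417, minus strand: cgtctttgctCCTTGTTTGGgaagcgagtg
Ecm1 holds TATAAA at position -27, CAGACA at position -15 and the AP-1 letters TGAGTCA at position -64. Colec11 holds CAGACA, the letters of a SMAD element, at position -166 and the E-box CAGCTG at position -109. Outside the printed stretch it also holds CAGACA on the other strand at position -43 and CAGCTG at position -2. Des holds the same E-box at position -36 and CAGACA at position 19 after the start. Acta2 holds CAGACA on the other strand at position -236 and CAGCTG at position -182. Serum response factor binds the CArG box in many smooth muscle genes. Its strict form, with only A or T between CC and GG, was found in no member with a printable window. A search added after the data were seen, allowing 1 inner G or C in the CArG box, found the matches of Acta2 at positions -84 and -34 and 1 in Lrat at position -223. Of 32851 promoter windows of the same length, 250 bases before and 50 after a start, 1.63% held the CArG box and 8.50% the form with 1 inner G or C. TATAAA was found in 13.6%, CAGACA in 21.04%, CAGCTG in 16.3% and TGAGTCA in 5.20% of them. CACCTG was found in 20.2%, TGACCT in 16.3% and TGGGTGGTC in 0.253% of them, and of these 3 only CACCTG was found in a member, Lrat. These matches describe letters only.

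Before the members are compared, the libraries differed in several ways. Total counts were between 13378445 and 15976339, and 3 counts, the floor used here, corresponded to 0.176 to 0.269 CPM, the count scaled to library size by TMM normalization. Albumin (Alb), the main hepatocyte product, lay between 51545 and 129117 CPM. The X inactivation transcript Xist reached 0.764 and 1.73 CPM after APAP against 289.6 to 914 CPM after saline, while the Y-linked Ddx3y was at 61.7 and 78.97 CPM after APAP against 0 to 0.0668 CPM with saline. Treatment and the sex these transcripts follow cannot be told apart, although the methods name male mice.

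The quiescent genes are taken first. Lrat makes the enzyme that esterifies retinol for storage and lies at chr3:82892579-82903973 (minus strand). It was at 16.2 and 19.9 CPM in APAP replicates 1 and 3 and at 31.5, 19.0 and 15.3 CPM in WT1, WT2 and WT3. Both APAP livers lay within the saline range, and WT1 was the highest library. The log2 fold change was -0.28 ± 0.33 (SE), with an adjusted p of 0.655. Without WT1 it was 0.083.

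Reln encodes reelin, a secreted glycoprotein that stellate cells release, at chr5:21884454-22344702 (minus strand). Its levels were 30.7 and 67.0 CPM after APAP against 59.0, 47.8 and 46.0 CPM with saline. The APAP livers fell on either side of all 3 saline livers, so their mean hid a difference between them. Its log2 fold change came to -0.059 ± 0.34 (adjusted p = 0.937), and 0.40 if APAP replicate 1 was left out or -0.74 if replicate 3 was.

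Ecm1, a secreted matrix protein abundant in quiescent stellate cells, lies at chr3:95734147-95739569 (minus strand). It was at 63.3 and 102 CPM with APAP against 189, 130 and 125 CPM with saline. Both APAP livers were below every saline liver. A log2 fold change of -0.84 ± 0.32 came with an adjusted p of 0.160, so the difference did not pass the test, although it met the study's looser threshold of a 1.5-fold change at an unadjusted p below 0.05.

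Colec11, a C-type lectin of the complement system, lies at chr12:28594173-28623290 (minus strand). Its levels were 14.6 and 25.8 CPM after APAP against 52.5, 31.1 and 28.1 CPM with saline. The pattern resembled that of Ecm1, with APAP replicate 1 lowest and WT1 highest. APAP over saline, its log2 fold change was -0.88 ± 0.37 (adjusted p = 0.203).

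Hhip encodes a membrane protein that binds hedgehog ligands and limits their signal, at chr8:79966115-80058006 (minus strand). It was scarce, at 1.41 and 1.55 CPM after APAP against 1.34, 0.996 and 2.34 CPM with saline, which corresponds to between 15 and 35 reads. The groups overlapped, and the log2 fold change of -0.081 ± 0.54 (adjusted p = 0.946) turned to 0.34 without WT3. So few reads limit its precision.

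Among the activation genes, Tagln showed the clearest response. It encodes transgelin (SM22 alpha), an actin-binding protein of smooth muscle and myofibroblasts, at chr9:45929628-45936058 (minus strand). Tagln was at 43.2 and 15.6 CPM after APAP against 4.03, 6.64 and 3.54 CPM with saline. The lower APAP liver was 2.35-fold above the highest saline liver. The log2 fold change was 2.63 ± 0.47 with an adjusted p of 0.0257, and 508 of 13734 genes, or 3.7%, rose by the same criterion. Of 13 alternatives, 9 kept the call, and the others each left out 1 library. Leaving out APAP replicate 1 gave 1.72 (adjusted p = 0.141), and without WT1, WT2 or WT3 it was 2.55, 2.96 and 2.45 (adjusted p = 0.0789, 0.0754 and 0.0554). Tagln overlaps Pcsk7 on the opposite strand, and the strand setting of the counting is not given in the sources used here. Pcsk7 had 356 and 363 reads with APAP and 325, 531 and 533 with saline, so it was not higher after APAP.

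Acta2, which encodes alpha smooth muscle actin, the standard sign of a myofibroblast, lies at chr19:34241090-34255336 (minus strand). It was at 42.7 CPM in APAP replicate 1, at 5.38 CPM in APAP replicate 3 and at 3.41, 4.52 and 2.14 CPM in the saline livers. Both APAP livers exceeded every saline liver, but replicate 3 only by 1.19-fold over the highest, and the APAP livers differed from each other 7.94-fold. For Acta2 the log2 fold change was 2.84 ± 0.78 (adjusted p = 0.0770). Without APAP replicate 1 it was 0.68 (adjusted p = 0.607), and without APAP replicate 3 it was 3.66 (adjusted p = 0.0120). The likelihood ratio and exact tests of edgeR, DESeq2 and edgeR with no filter beyond 1 count called Acta2 as well.

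Pdgfrb encodes the receptor through which PDGF drives stellate cell growth, at chr18:61045150-61085061 (plus strand). Its levels were 18.7 and 16.3 CPM after APAP against 9.95, 10.6 and 10.1 CPM with saline. The libraries of each group lay close together, and the groups were well apart, with a 1.71-fold difference. The log2 fold change was 0.78 ± 0.21 (adjusted p = 0.0715) by the quasi-likelihood test, while DESeq2 gave an adjusted p of 0.0371. Leaving out any 1 library kept the log2 fold change between 0.68 and 0.86.

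Lox, the enzyme that crosslinks collagen and elastin, lies at chr18:52516069-52529867 (minus strand). It had 33 and 30 reads with APAP, or 1.94 and 1.85 CPM, against 2, 9 and 16 reads with saline, or 0.179, 0.598 and 1.07 CPM. The APAP livers were nearly equal and above all saline livers, of which WT1 was under the floor of 3 counts. Its log2 fold change was 1.58 ± 0.69 (adjusted p = 0.215) and also rests on few reads.

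Des, the muscle intermediate filament desmin and a classical rodent stellate marker, lies at chr1:75360329-75368579 (plus strand). It was at 18.2 and 35.0 CPM after APAP against 7.26, 42.5 and 73.4 CPM with saline. The saline livers alone differed 10.1-fold, and the groups overlapped. For Des the log2 fold change was -0.63 ± 0.81 (adjusted p = 0.680), and 0.089 without WT3.

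**Figure D1:**
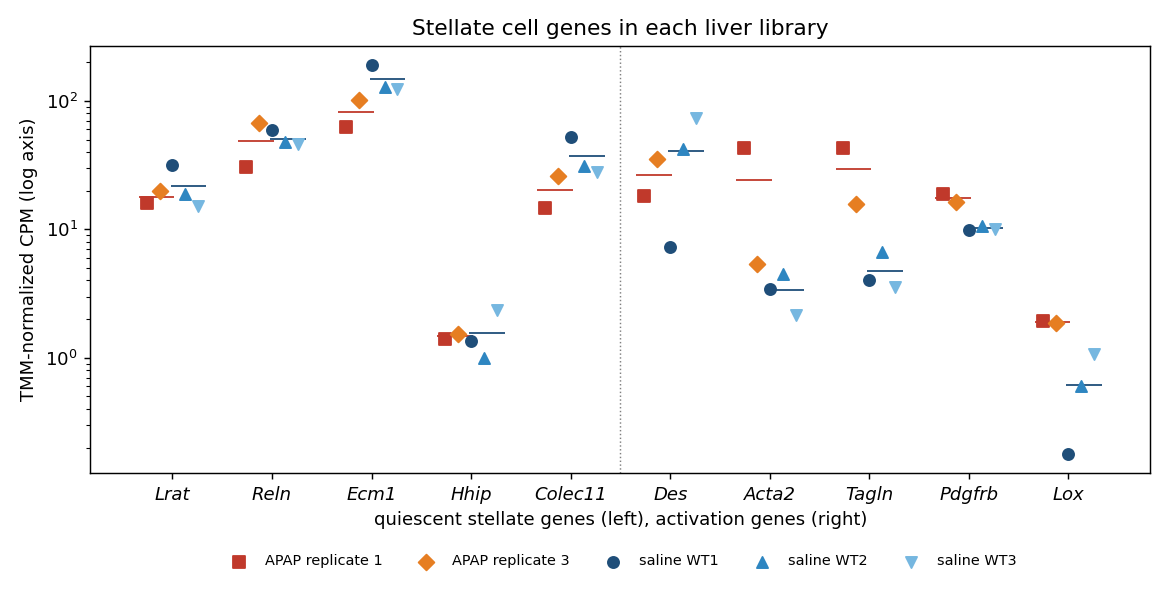
TMM-normalized CPM of the 10 genes (log axis) in the 5 libraries, quiescent genes on the left and activation genes on the right, with a line at each group mean. Acta2 stands at 42.7 CPM in APAP replicate 1 and at 5.38 CPM in replicate 3, while the 5 Pdgfrb points form a tight APAP pair and a tight saline trio.

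Of the 10 genes, 1 passed an adjusted p of 0.05 against a background of 7.23% of all genes tested. None of them was called lower, where the background was 3.53%. The study's looser threshold was met by 4, Acta2, Tagln and Pdgfrb as higher and Ecm1 as lower, beside 23.5% of all genes, and by Tagln alone without APAP replicate 1. No overlap between APAP and saline livers was found for 6, namely Ecm1 and Colec11 as lower and Acta2, Tagln, Pdgfrb and Lox as higher, beside 44.1% of all genes. The median log2 fold change was -0.28 over the quiescent genes and 1.58 over the activation genes, beside 0.030 over all genes tested.

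**Figure D2:**
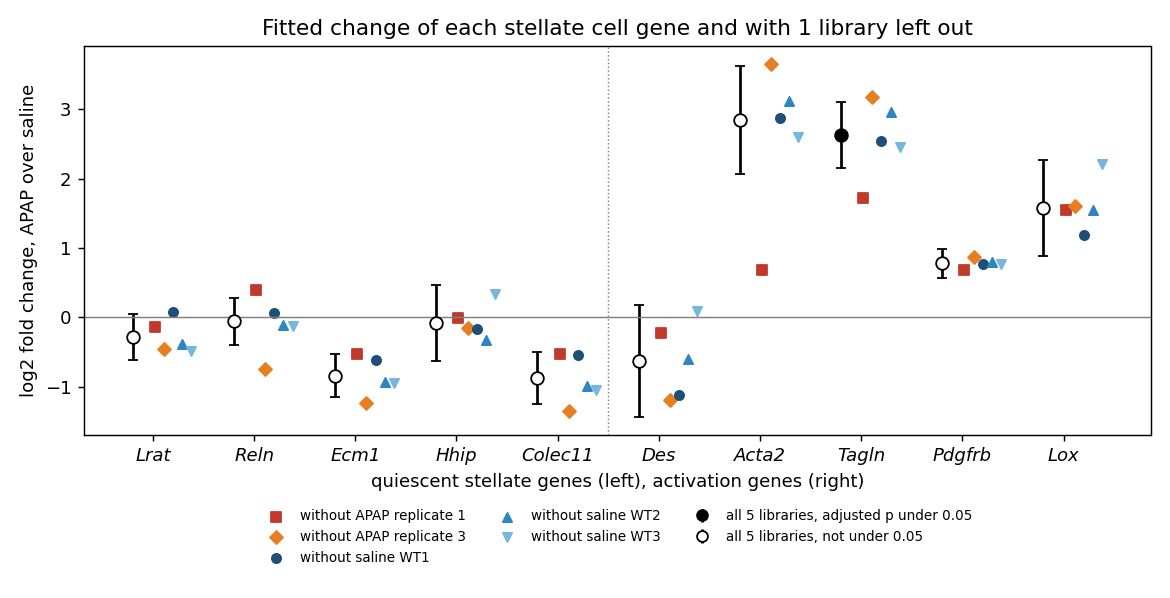
Log2 fold change of APAP over saline for each gene, as a circle with its SE for all 5 libraries (filled where the adjusted p was below 0.05) and as coloured symbols with 1 library left out. The Acta2 estimate drops from 2.84 to 0.68 without APAP replicate 1, whereas Pdgfrb stays between 0.68 and 0.86.

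Summed over the 5 quiescent genes, the APAP livers had 126 and 217 CPM and the saline livers 334, 228 and 216 CPM. APAP replicate 3 thus lay at the level of WT3, and replicate 1 was below all others. Summed over the 5 activation genes, the values were 125 and 74.2 CPM after APAP against 24.8, 64.9 and 90.3 CPM with saline, and they overlapped. Desmin carried much of the saline spread, and without it the sums were 107 and 39.2 CPM after APAP against 17.6, 22.4 and 16.8 CPM with saline. The ratio of activation to quiescent genes was 0.989 and 0.343 with APAP and 0.0744, 0.284 and 0.417 with saline, and the groups overlapped. Leaving out Des was not part of the plan. Without Des the ratio was 0.845 and 0.181 with APAP and 0.0526, 0.0980 and 0.0778 with saline.

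Per kilobase of exon (RPKM), the order of the members shifted between the groups. In saline livers Ecm1 (58.7 RPKM) and Colec11 (23.0 RPKM) led by mean, and their ranges over the 3 livers did not overlap. By mean, Des followed at 10.9 RPKM, Lrat at 4.10 RPKM and Tagln at 2.38 RPKM, but the Des range of 1.93 to 19.6 RPKM spanned that of Lrat and reached into that of Colec11, which it exceeded in WT3. Reln (2.14 RPKM), Pdgfrb (1.87 RPKM) and Acta2 (1.53 RPKM) had overlapping ranges, and Hhip (0.172 RPKM) and Lox (0.129 RPKM) were lowest, also with overlap. The exon length joins all annotated exons of a gene. For Reln it was 23738 bases, while the longest protein-coding transcript has 11699, so the place of Reln in this order depends on the length used. In the APAP livers Ecm1 still led at 32.8 RPKM, while Tagln took the second place at 14.8 RPKM ahead of Colec11 at 12.5 RPKM and Acta2 at 10.95 RPKM. The second place was that of Tagln in APAP replicate 1, with 21.8 RPKM against 9.03 RPKM for Colec11, and that of Colec11 in replicate 3, with 15.9 RPKM against 7.87 RPKM for Tagln. Acta2 ranked 3 of the 10 in replicate 1, with 19.5 RPKM, and 8 in replicate 3, with 2.45 RPKM, as it did in the saline mean.

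Genes of smooth muscle moved with Acta2 and Tagln in the same library. The 6 vascular smooth muscle markers summed to 74.9 CPM in APAP replicate 1, to 19.5 CPM in replicate 3 and to 12.5, 20.9 and 11.4 CPM in WT1, WT2 and WT3. The sum in replicate 3 lay within the saline range, although its Smtn and Synpo2 were above all saline libraries and its Actg2 below them. The smooth muscle myosin Myh11 was at 38.2 and 3.96 CPM after APAP against 4.57, 8.30 and 2.54 CPM with saline, and the enteric actin Actg2 was at 9.81 and 0.185 CPM after APAP against 0.2004 to 0.465 CPM with saline. Of the 5 markers tested, 0 passed the adjusted threshold by edgeR's quasi-likelihood test, beside 7.23% of all genes. The looser threshold of the study was met by 2, beside 23.5% of all genes, and at most 2 were called under any alternative.

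The same liver was also high in the duct keratin Krt19, at 23.6 CPM against 2.72 CPM in replicate 3 and 1.25 to 2.54 CPM with saline. The hedgehog ligand Shh was at 8.75 CPM there and at 0 to 0.133 CPM in the other 4 libraries. The cholangiocyte markers Sox9 and Spp1 rose to a like extent in both APAP livers, Spp1 from 37.7 to 42.6 CPM with saline to 276 and 313 CPM (adjusted p = 0.00183). They were the 2 of 6 cholangiocyte markers tested that were called (33.3%, beside 3.7% of all genes that rose). All 6 were higher at the study's looser threshold and had no overlap between the groups, beside 23.5% and 44.1% of all genes. Their median log2 fold change was 2.47. The listed cholangiocyte markers, with Spp1 as the largest part, summed to 357 and 359 CPM after APAP against 49.4, 54.3 and 49.6 CPM with saline. The part of smooth muscle or duct tissue in the Acta2 and Tagln values was not tested.

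Desmin was higher in the libraries with high levels of skeletal muscle genes. Summed over 13 such genes, a list made after the data were seen, the libraries had 1.47 and 671 CPM after APAP against 2.33, 1117 and 1961 CPM with saline. Skeletal actin Acta1 was at 0 in APAP replicate 1 and in WT1 and at 128 CPM in APAP replicate 3, 201 CPM in WT2 and 330 CPM in WT3. Desmin was also lowest in the 2 libraries without Acta1, where it was at 18.2 CPM after APAP against 7.26 CPM with saline. In the 3 libraries with Acta1 it was at 35.0 CPM after APAP against 42.5 and 73.4 CPM with saline. Tropomyosin 2 (Tpm2), shared by muscle types, had 12.7 and 37.0 CPM after APAP against 6.81, 55.7 and 90.1 CPM with saline, the same order of libraries as Des. The part of muscle tissue in the Des values was not tested.

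**Figure D3:**
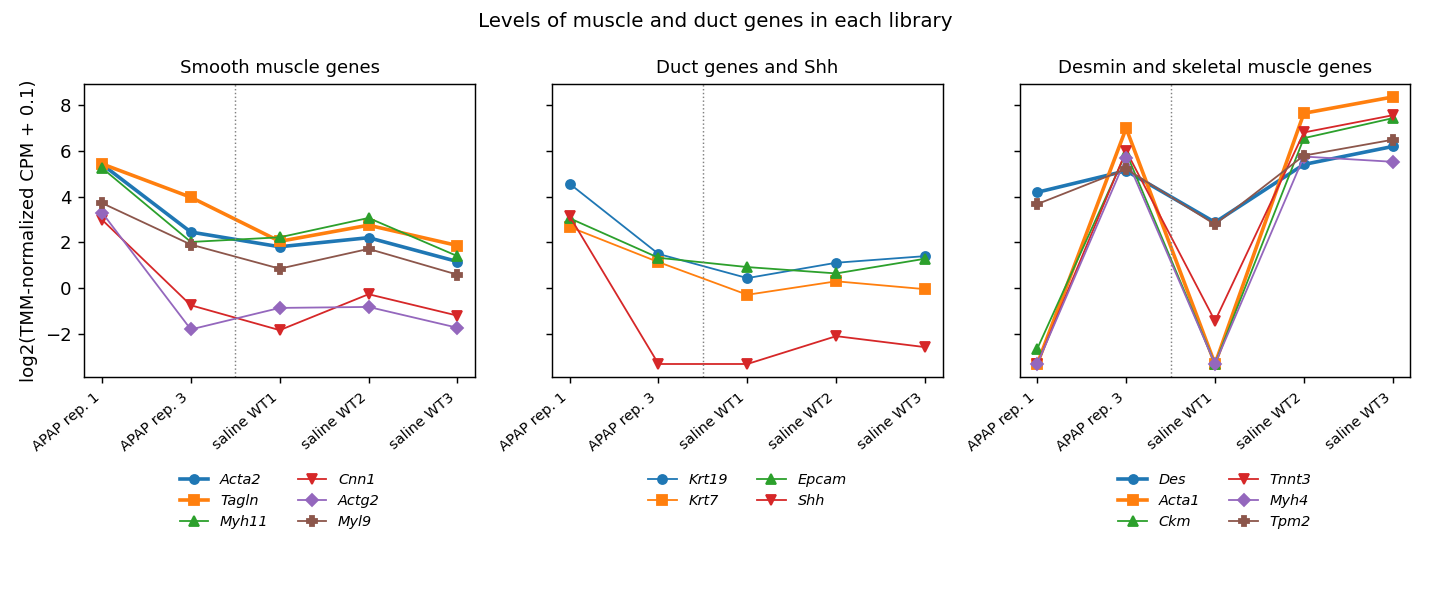
Levels as log2(CPM + 0.1) in the 5 libraries for smooth muscle genes with Acta2 and Tagln, duct genes with Shh, and skeletal muscle genes with Des, where lines join the values of 1 gene. The plotted smooth muscle and duct genes peak in APAP replicate 1. The duct markers Sox9 and Spp1, which rose in both APAP livers, are not plotted. Des is lowest in APAP replicate 1 and WT1, where Acta1 is 0.

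Other genes of the actin and contractile apparatus rose as well. Of 24 listed genes tested, 5 rose (20.8%, beside 3.7% of all genes) and none fell, and the median log2 fold change was 0.85. The 5 were vinculin (Vcl), filamin A (Flna), transgelin 2 (Tagln2), non-muscle myosin heavy chain (Myh9) and tropomyosin 4 (Tpm4), cytoskeletal genes that many cell types express. Vcl was at 74.3 and 76.2 CPM after APAP against 24.1, 24.7 and 18.8 CPM with saline, a log2 fold change of 1.74 ± 0.21 (adjusted p = 0.00676) that passed under all 13 alternatives. Flna rose by 1.62 ± 0.25 (adjusted p = 0.0162), from 17.0 to 27.6 CPM with saline to 74.6 and 68.5 CPM. Unlike Acta2, Vcl and Flna stood at nearly the same level in both APAP livers. The 5 calls became 1 without APAP replicate 1, 3 without APAP replicate 3 and 1 without WT2. Beta actin and gamma actin share 14.2% and 56.7% of their 50-base words with other genes, so their counts are uncertain, whereas Acta2 shares 0.352% of its words and the other members none.

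In the retinoid pathway, 17 of 21 listed genes were tested, and 1 rose and 2 fell (17.6%, beside 7.23% of all genes) while Lrat did not pass the test. Cyp26a1, which degrades retinoic acid, was at 3.11 and 4.33 CPM after APAP against 58.5, 23.7 and 15.9 CPM with saline, a log2 fold change of -3.13 ± 0.61 (adjusted p = 0.0330). Dhrs3, which reduces retinal back to retinol, was at 22.0 and 22.8 CPM after APAP against 160, 124 and 79.5 CPM with saline, a log2 fold change of -2.43 ± 0.34 (adjusted p = 0.0127). Both are also made by hepatocytes, as is Plin2, the lipid droplet coat protein, which rose from 143 to 505 CPM with saline to 1903 and 1616 CPM (2.49 ± 0.50, adjusted p = 0.0352). All 3 calls were lost when APAP replicate 1, APAP replicate 3 or WT2 was left out, and that of Plin2 also without WT1.

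**Figure D4:**
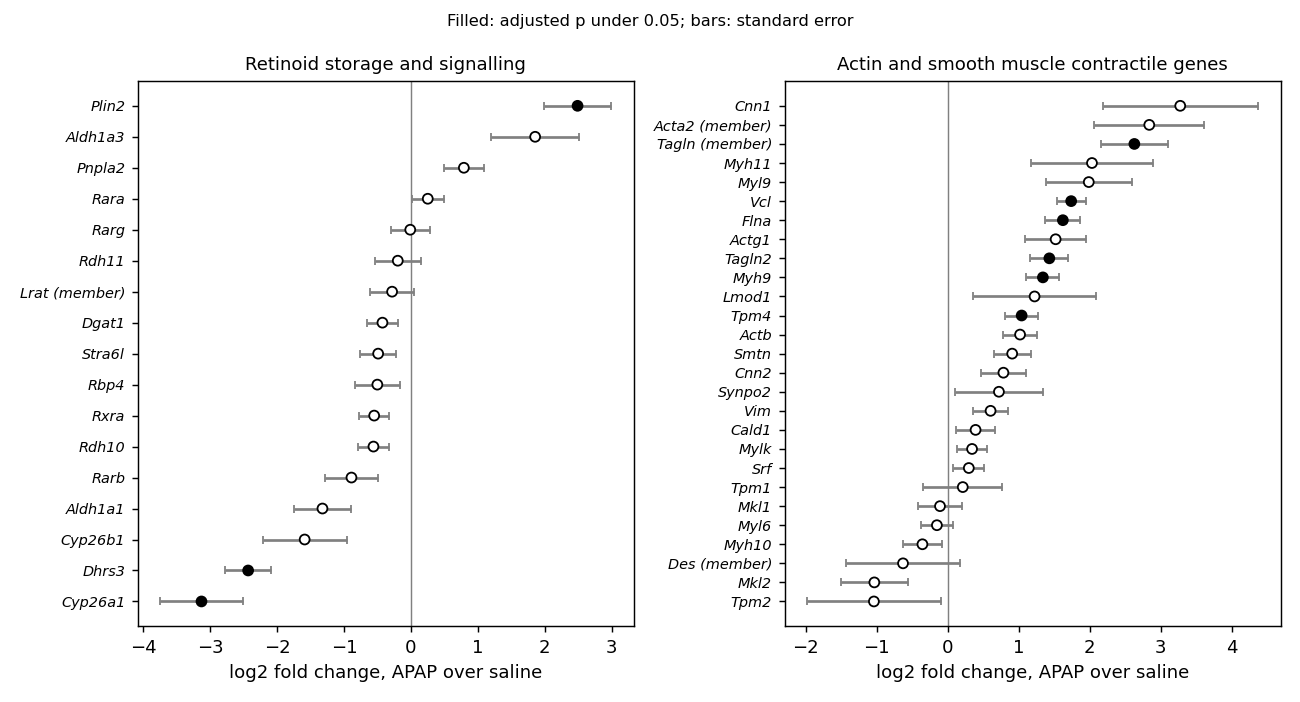
Log2 fold change of APAP over saline with its SE for retinoid genes beside Lrat (left) and the tested actin and contractile genes beside Des, Acta2 and Tagln (right), filled where the adjusted p was below 0.05. Lrat sits at -0.28, between Plin2 at 2.49 and Cyp26a1 at -3.13, and the called contractile genes lie between 1.04 and 2.63.

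Partners of the other members were examined in the same way. Of the 7 reelin pathway genes, Vldlr, a reelin receptor that also takes up lipoproteins, fell from 9.95, 26.4 and 16.3 CPM with saline to 1.23 and 2.72 CPM (log2 fold change -3.15 ± 0.55, adjusted p = 0.0238). The call was lost without APAP replicate 1, APAP replicate 3 or WT2. The other reelin receptor, Lrp8, was at 1.94 and 5.07 CPM after APAP against 0, 0.399 and 0 CPM with saline, with an adjusted p of 0.0600.

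Of 6 collectin and lectin pathway genes tested beside Colec11, Mbl2, the mannose-binding lectin of hepatocytes, fell from 775, 524 and 386 CPM to 27.1 and 65.3 CPM (log2 fold change -3.60 ± 0.53, adjusted p = 0.0147), and this call was lost without APAP replicate 1 or WT2. Colec10, the partner of Colec11 in a heteromeric lectin, was at 17.0 and 36.8 CPM after APAP against 43.5, 38.1 and 34.3 CPM with saline. Its groups overlapped, and the log2 fold change was -0.52 ± 0.34 (adjusted p = 0.397).

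Among 6 PDGF genes other than Pdgfrb, 0 passed the quasi-likelihood test, beside 7.23% of all genes. Of the 6, 2 met the study's looser threshold, beside 23.5% of all genes, and at most 2 were called under any alternative. The sister receptor Pdgfra was at 14.6 and 8.53 CPM after APAP against 13.0, 11.03 and 13.6 CPM with saline (log2 fold change -0.11 ± 0.29, adjusted p = 0.851). The ligand Pdgfa was at 5.82 and 7.79 CPM after APAP against 3.05, 2.72 and 1.40 CPM with saline (1.51 ± 0.41, adjusted p = 0.0772). The receptor-like Pdgfrl was at 0.470 and 0.309 CPM after APAP against 2.42, 1.40 and 1.40 CPM with saline (-2.12 ± 0.61, adjusted p = 0.0868), and the likelihood ratio test, the exact test and DESeq2 called it.

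Of 12 lysyl oxidase and crosslinking genes, 0 passed the quasi-likelihood test, beside 7.23% of all genes. Of the 12, 4 met the study's looser threshold, beside 23.5% of all genes, and at most 1 was called under any alternative. The Lox relatives gave log2 fold changes of 0.44 for Loxl1, 1.34 for Loxl2, -0.31 for Loxl3 and -0.41 for Loxl4. The most abundant gene of the list, fibronectin (Fn1), had a log2 fold change of 0.26 ± 0.31 (adjusted p = 0.651). Among the Lox relatives, Loxl2 was above saline in both APAP livers, at 4.70 and 7.48 CPM against 3.23, 2.26 and 1.74 CPM.

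Of 9 hedgehog genes tested beside Hhip, 0 passed, where 7.23% of all genes did. Of the 9, 2 met the study's looser threshold, beside 23.5% of all genes, and at most 1 was called under any alternative. The receptor and target gene Ptch1 was at 22.7 and 19.6 CPM after APAP against 19.3, 28.0 and 26.5 CPM with saline. The ligand Ihh was at 5.52 and 1.79 CPM after APAP against 1.70, 0.996 and 0.601 CPM with saline, highest in the library that held Shh.

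A wider list of stellate and pericyte genes was examined too. Of 26 tested, 0 were called by the quasi-likelihood test, beside 7.23% of all genes. The looser threshold of the study was met by 4, beside 23.5% of all genes, and at most 2 were called under any alternative. The median log2 fold change of the 26 was -0.28, close to that of the quiescent members. The most abundant, the proteoglycan decorin (Dcn), was at 193 and 206 CPM after APAP against 252, 198 and 234 CPM with saline.

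Markers of other liver cells gave the frame for these values. Over all genes tested, 7.23% passed the quasi-likelihood test and 23.5% met the study's looser threshold. Of 9 portal fibroblast markers, 0 passed the quasi-likelihood test, met the study's looser threshold or were called under any alternative. The listed markers summed to 116 and 66.6 CPM after APAP against 69.6, 84.1 and 43.0 CPM with saline. Of 10 sinusoidal endothelial markers tested, 0 were called under any setting, with 1 at the study's looser threshold and a median log2 fold change of -0.35. Of 10 Kupffer cell markers 0 were called, with 1 at the study's looser threshold, at most 1 call under any alternative and a median of -0.26. Of 3 mesothelial markers tested 0 were called under any setting, with 1 at the study's looser threshold. The most abundant genes of these lists had log2 fold changes of 0.68 for Gas6 (portal fibroblasts), 0.42 for Stab1 (endothelium), 0.21 for Cd5l (Kupffer cells) and 0.36 for Gpm6a (mesothelium). The median was -0.93 over 8 hepatocyte markers, of which 7 had a negative and 1 a positive log2 fold change. At the study's looser threshold 5 were lower, and 6 had no overlap between the groups, beside 44.1% of all genes. The 8 summed to 66277 and 110298 CPM after APAP against 165110, 121399 and 148604 CPM with saline. By the quasi-likelihood test only Cyp2e1 was called. It fell by 2.34 on the log2 scale (adjusted p = 0.0418), a call lost without any 1 of the 5 libraries. Neutrophil markers rose in 6 of 7 tested (85.7%, beside 3.7% of all genes). Their sum was 2154 and 735 CPM with APAP against 14.8 to 70.4 CPM with saline. Among them Lcn2 rose by 5.60, S100a8 by 5.02, Cxcr2 by 4.37 and Csf3r by 2.59 on the log2 scale. The calls became 3 without APAP replicate 1 and 2 without WT2. The part of infiltrating cells in the stellate values was not tested. Nor was the part of hepatocytes in the values of Ecm1 and Colec11, whose log2 fold changes were -0.84 and -0.88.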

How the data were processed

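The authors sequenced liver RNA on an Illumina NovaSeq platform, obtained the counts with HISAT2 and deposited raw read counts per gene and library without normalization. The submitters' processing notes name GRCm38 (mm10), and the annotation, strand setting and program versions are not given in the sources used here. The 5 FPKM columns were not used, since the count test needs raw counts. Of 34745 identifiers, 34267 were found in GENCODE M21, which gave exon lengths, and coordinates are those of the deposited table (GRCm38).

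Genes were kept by filterByExpr of edgeR 4.0.16 in R 4.3.3 (minimum count 10, minimum total 15), which left 13734. APAP was compared with saline after TMM normalization by edgeR's quasi-likelihood test on all 5 libraries, with Benjamini-Hochberg adjustment over all genes tested. CPM and RPKM use TMM-scaled library sizes, the SE is the log2 fold change divided by the square root of F, and the common dispersion corresponded to a biological coefficient of variation of 33.3%. The test was checked on simulated counts. The floor of 3 counts covers counting error only, whereas the SE includes the estimated spread between libraries. The 13 alternatives included DESeq2 1.42.0. The study's methods name edgeR but not which of its tests.

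The members, lists and tests were chosen with earlier results of these data known. Named are all members, Pdgfra, Colec10 and Loxl1 to Loxl4, Xist, Ddx3y, Alb, and from each list up to 2 called genes with the highest and 2 with the lowest fold change, or else the most abundant gene. Tagln2, Actg2, Cnn1, Myl9, Krt7, Krt19, Epcam, Shh, Acta1, Tpm2, Lrp8, Pdgfa, Pdgfrl, Smtn, Synpo2, Ihh, Pcsk7, the actins and the skeletal muscle list were chosen after their values were seen. A gene of the retinoid list is not reported here.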

Additional observations from a re-analysis of the deposited data

How the results depend on the processing

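The count of members called, 1 in the results above, was 2 with edgeR's likelihood ratio test, with its exact test, with library size only and without a filter beyond 1 count, and 3 with DESeq2, while leaving out 1 library gave 0 to 2. It was 0 without APAP replicate 1, WT1, WT2 or WT3. The count at the study's threshold, 4, was 1 to 6 with 1 library left out, and 1 without APAP replicate 1. Over all genes 993 were called, 1835 with the likelihood ratio test, 1776 with the exact test, 2093 with DESeq2, and 165 to 922 with 1 library left out. Counts with only library size as scaling moved the median log2 fold change of all genes to 0.42 and the share of higher calls from 51.2% to 77.8%, and turned Lrat to 0.14, Reln to 0.31 and Hhip to 0.30. With 1 library left out, the log2 fold change ranged from -0.49 to 0.083 for Lrat, from -0.74 to 0.40 for Reln, from -0.32 to 0.34 for Hhip and from -1.18 to 0.089 for Des. The other 6 members kept their direction under every alternative run. The cause of these shifts was not tested. Lox could not be tested with a minimum of 10 counts in every library. No paired analysis was possible because the saline columns carry names that cannot be matched to the numbered saline samples. At totals of 13378445 to 15976339 counts, Hhip and Lox rest on 2 to 35 reads a library.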
